A study of Homo sapiens with 2 samples.

Results

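Interferon-stimulated genes were compared between a radiotherapy-resistant breast cancer cell line and the line it was made from. The set holds 34 genes, chosen by symbol from the core of the type I interferon response, out of 24462 gene symbols in the count tables. RT-R-MDA-MB-231, called RT-R here, is the derivative: MDA-MB-231 cells were given 2 Gy of X-rays again and again, until 50 Gy had been reached. MDA-MB-231, called parental here, is a widely used triple negative breast cancer line, meaning that estrogen and progesterone receptors and HER2 amplification are lacking. Both lines were grown in RPMI medium with 10% serum and antibiotics, and no interferon, virus or other agent is named for either. Each line was represented by 1 library of 3' tags, in which a transcript gives reads near its end only, so counts were not divided by gene length. The labels do not say whether the resistant line is a clone, how many passages separate the lines, or how long after the last fraction RNA was taken.

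The RT-R library held 10014804 counts and the parental library 9255008. With 1 library per line there is no replicate spread and no p-value. Each ratio below is RT-R over parental after scaling of library sizes, with a 95% interval that covers counting error only. Such an interval says how precisely these libraries were counted and nothing about variation between cultures. VIM, the mesenchymal filament gene that this line expresses strongly, had 8454 counts in RT-R and 4310 in parental, and ESR1 and PGR together had 1 and 0. Of the other markers listed as low in this line, EPCAM had 26 counts in RT-R and 15 in parental. ERBB2, the gene of HER2, was present, with 174 and 230. The leukocyte markers PTPRC and CD3E had 0 counts in both libraries. CD14 had 39 counts in RT-R and 14 in parental, and the other 5 leukocyte markers together held 2 and 5, all from LYZ. PECAM1, an endothelial and leukocyte surface gene, had 50 counts in RT-R and 223 in parental, while the endothelial markers CDH5 and VWF had 0 or 1 in either library.

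Type I interferons are secreted when a cell senses foreign or misplaced nucleic acid. They bind the IFNAR receptor, whose kinases JAK1 and TYK2 phosphorylate STAT2, among other proteins, and STAT2 and IRF9 act together in the complex ISGF3. ISGF3 binds the interferon-stimulated response element in promoters and switches on a large set of genes, most of which interfere with a step of virus growth. Many tumour lines keep some of these genes on without added interferon.

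The promoters show what the genes have in common at the sequence level. RefSeq promoter windows, from 250 bases before to 50 bases after a transcript start, were available for 27 of the 34 genes, as 35 windows. The letters GAAA, NN and GAAA in a row, where N is any base, form the core of the response element. They stood on either strand in at least 1 window of 19 of the 27 genes (70.4%), against 4.38% of the 27305 genes in the RefSeq table. Per window, the shares were 65.7% of 35 and 3.57% of 35116. The longer form GGAAA, NN and GAAAC, which contains the core, was found for 12 of the 27 genes (44.4%), against 0.381% of all genes. TTCNNNGAA, the letters of a STAT dimer site, which reads the same on both strands, was found for 9 of the 27 genes (33.3%), against 9.38%. In IFI27, IFITM1 and MX1 every such site shares bases with a match to the core, so these shares are not independent. Each window is given 5' to 3' in the direction of its gene, on build GRCh38.p14, with every match to the core, on either strand, in capitals. Neighbouring matches in ISG15 overlap, and the run there holds 2 of them. The 7 windows shown belong to 5 of the 6 members called different, by the rule given below, and to IFI6 and OAS3, whose ratios lay between 1.5 and 2. They are MX1 (chr21:41420308-41420607, plus strand, the first of 3 windows), IRF9 (chr14:24161015-24161314, plus), IFI6 (chr1:27672143-27672442, minus), OAS3 (chr12:112938224-112938523, plus), ISG15 (chr1:1013247-1013546, plus), DDX60 (chr4:168318703-168319002, minus) and IFIT1 (chr10:89392373-89392672, plus).
MX1: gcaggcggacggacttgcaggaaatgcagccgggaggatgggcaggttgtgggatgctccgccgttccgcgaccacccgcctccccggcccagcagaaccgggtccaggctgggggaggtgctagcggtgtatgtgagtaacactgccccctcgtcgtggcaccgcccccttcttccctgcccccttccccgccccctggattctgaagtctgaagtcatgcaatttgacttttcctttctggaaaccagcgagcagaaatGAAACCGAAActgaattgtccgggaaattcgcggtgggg
IRF9: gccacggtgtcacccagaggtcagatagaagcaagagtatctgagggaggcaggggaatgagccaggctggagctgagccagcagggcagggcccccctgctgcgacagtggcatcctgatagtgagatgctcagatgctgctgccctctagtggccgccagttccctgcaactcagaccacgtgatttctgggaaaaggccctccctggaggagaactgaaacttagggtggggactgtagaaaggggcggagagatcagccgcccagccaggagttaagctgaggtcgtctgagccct
IFI6: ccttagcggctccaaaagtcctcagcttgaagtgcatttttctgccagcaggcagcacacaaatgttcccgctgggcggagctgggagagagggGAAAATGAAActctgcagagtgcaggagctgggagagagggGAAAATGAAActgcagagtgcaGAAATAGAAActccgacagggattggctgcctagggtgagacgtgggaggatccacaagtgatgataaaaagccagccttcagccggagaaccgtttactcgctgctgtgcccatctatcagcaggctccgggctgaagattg
OAS3: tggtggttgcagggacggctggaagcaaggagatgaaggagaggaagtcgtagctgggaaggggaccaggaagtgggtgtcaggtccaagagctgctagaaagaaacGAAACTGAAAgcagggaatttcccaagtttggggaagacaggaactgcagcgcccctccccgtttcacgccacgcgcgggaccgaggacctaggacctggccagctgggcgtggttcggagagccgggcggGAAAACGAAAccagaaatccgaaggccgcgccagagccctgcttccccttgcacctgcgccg
ISG15: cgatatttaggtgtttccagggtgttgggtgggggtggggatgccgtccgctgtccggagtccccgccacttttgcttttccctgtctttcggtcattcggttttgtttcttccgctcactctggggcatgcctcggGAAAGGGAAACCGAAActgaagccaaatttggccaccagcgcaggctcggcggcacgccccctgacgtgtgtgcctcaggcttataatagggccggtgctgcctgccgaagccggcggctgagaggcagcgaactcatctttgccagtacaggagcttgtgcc
DDX60: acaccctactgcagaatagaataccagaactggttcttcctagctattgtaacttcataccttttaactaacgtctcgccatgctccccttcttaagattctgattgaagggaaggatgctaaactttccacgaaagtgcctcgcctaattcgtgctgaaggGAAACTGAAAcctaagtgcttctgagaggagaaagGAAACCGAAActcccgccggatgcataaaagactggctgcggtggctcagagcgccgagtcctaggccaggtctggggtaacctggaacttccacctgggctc
IFIT1: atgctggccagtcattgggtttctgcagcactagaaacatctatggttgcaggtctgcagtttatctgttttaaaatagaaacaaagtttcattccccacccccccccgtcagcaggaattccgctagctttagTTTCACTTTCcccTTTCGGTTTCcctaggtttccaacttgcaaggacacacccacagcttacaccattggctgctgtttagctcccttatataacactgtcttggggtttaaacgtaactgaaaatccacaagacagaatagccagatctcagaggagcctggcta

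Genes with higher and with lower RT-R counts both carried the element in these windows. In the windows shown, MX1 and IFI6, with ratios of 2.03 and 1.66, held 1 and 3 matches. ISG15, DDX60 and IFIT1, all lower in RT-R, held 2 each. Another MX1 window, not shown, held a match to the longer form. IRF9 held none in its window and had the highest ratio of the members called. Of the 18 measured genes with the element, 5 had an interval above equal expression (27.7% of all genes did), 6 below it (30.4% of all genes) and 7 across it, with log2 ratios from -1.43 to 1.12. Both counts are near the shares over all genes. Of the 7 measured genes with a window and no match, 4 lay above, 2 below and 1 across. The search needed exactly 2 bases between the GAAA runs. Windows of genes such as DDX58, XAF1, IFI35, OAS1, MX1 and RSAD2 hold GAAA runs with 1 base between them. These were not counted, so no match does not mean no related sequence. Of the 41 matches, 40 began within the 200 bases upstream, in windows that partly overlap for IFI27 and IFI44. The windows reach only 250 bases upstream, and positions over all RefSeq windows were not taken, so this count cannot show clustering near the start. A match is a description of the letters, and none of these data show which sites were bound.

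**Figure D1:**
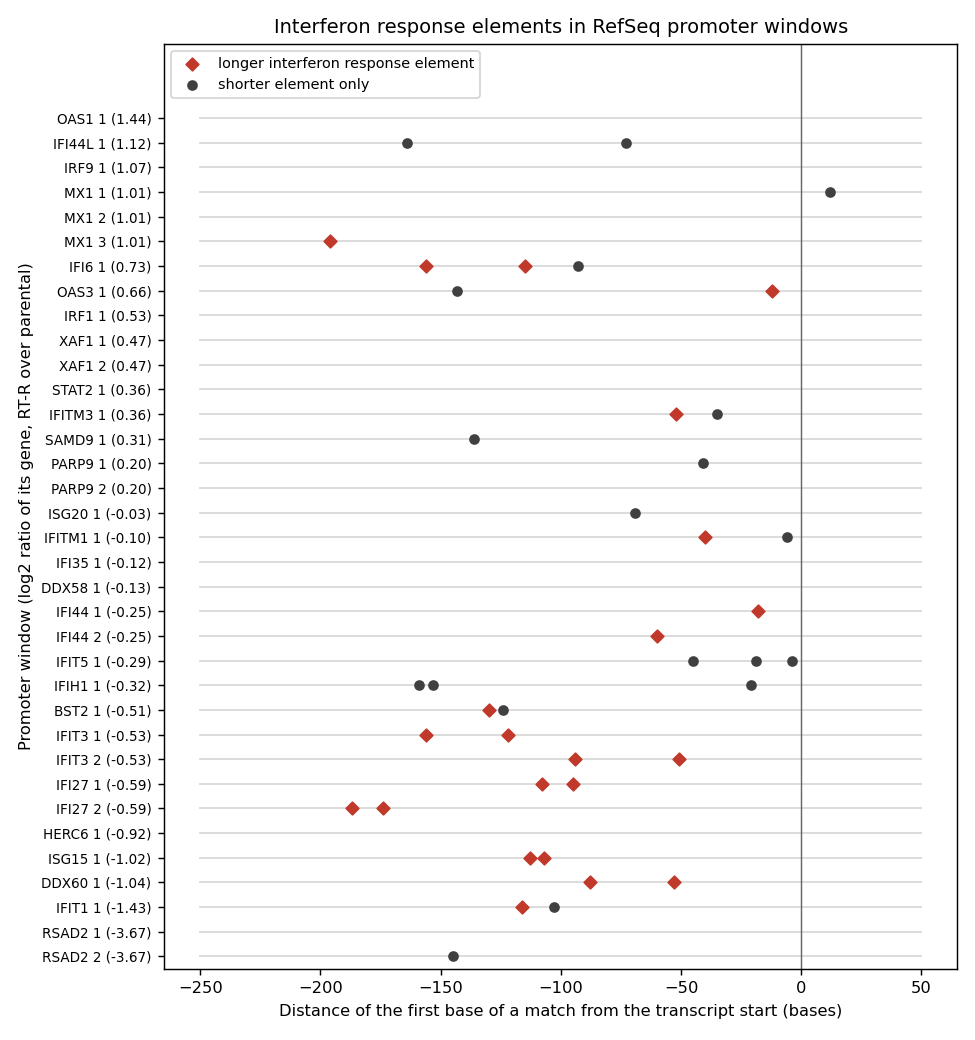
Distance in bases from the transcript start (x axis) of each interferon response element match in 35 RefSeq promoter windows, ordered from the highest to the lowest log2 ratio of the gene (in parentheses). Diamonds mark the longer element and circles the shorter one alone, and longer elements occur in windows from MX1 at 1.01 to IFIT1 at -1.43.

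The summed count of the set was nearly equal in the lines, while its members lay on both sides of equal expression. The 34 genes together held 16291 counts in RT-R and 14454 in parental, a ratio of 1.01 (0.988 to 1.03). Of the 34 genes, 31 had at least 20 counts in a library, the minimum for a call, and MX2 and IFI44L reached it through the RT-R library alone. A gene was called when its ratio was at least 2-fold and its interval excluded 1. By this rule 2 of 31 genes rose (6.45%), against 6.95% of all 12644 genes measured, and 4 of 31 fell (12.9%), against 4.0% of all. The genes that rose were MX1 and IRF9, and those that fell were IFIT1, OAS2, DDX60 and ISG15. At 1.5-fold, without the interval, 7 genes were higher (22.6%, against 15% of all) and 7 lower (22.6%, against 12.7%). The 7 higher genes include MX2 and IFI44L, whose intervals spanned 1. MX2 and IFI44L enter that count only because they were high in RT-R, so its excess over 15% cannot be read as a result about the set. The median log2 ratio was -0.03, against -0.01 over all genes. The median absolute log2 ratio, a measure of how far genes lay from equal expression in either direction, was 0.53 over the 31 genes and 0.34 over all. An interval on either side of 1 at any fold was found for 10 genes above (27.7% of all genes) and 10 below (30.4% of all genes), and 11 spanned it.

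**Figure D2:**
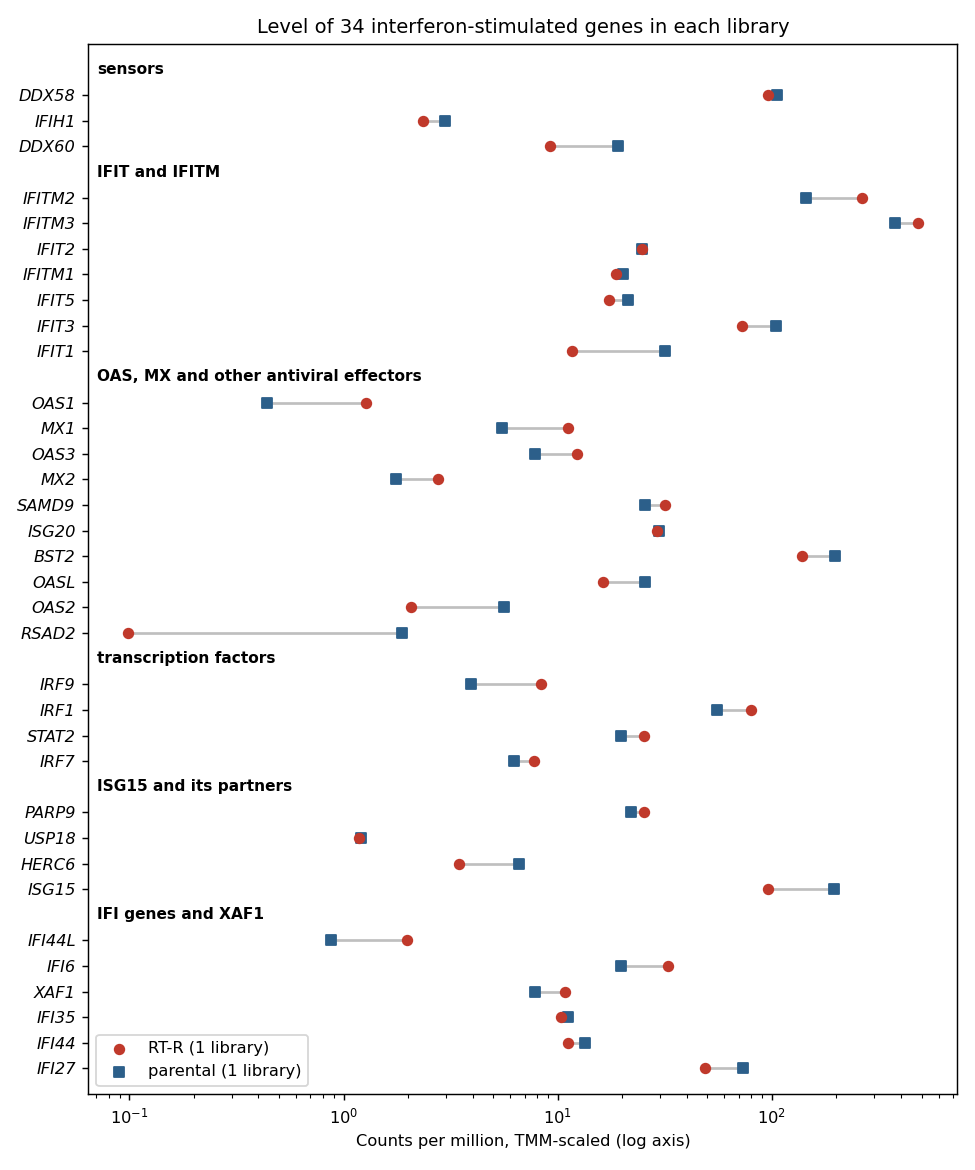
CPM, the count relative to the scaled size of its library (log axis), of the 34 genes in the RT-R library (circles) and the parental library (squares), 1 library each, grouped by role. IFITM3 has the highest level in both libraries, at 480 and 376, and RSAD2 the lowest in RT-R, at 0.0984.

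The summed level rested on a few abundant genes. IFITM1, IFITM2 and IFITM3 made up 47.5% of the set's counts in RT-R and 34.04% in parental, and their sum had a ratio of 1.41 (1.36 to 1.46). The set without the 3 IFITM genes held 8548 counts in RT-R and 9534 in parental, 1.24-fold lower (1.21 to 1.28). Without ISG15 and BST2 as well, the remaining genes held 6169 counts in RT-R and 5963 in parental, 1.08-fold lower (1.04 to 1.12). Relative to library totals before scaling, the set without the 3 IFITM genes took 854 CPM in RT-R (836 to 872) and 1030 CPM in parental (1010 to 1051).

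Interferon genes themselves were not detected in either library beyond a single count. The 21 ligand genes, which cover the alpha, beta, gamma, epsilon, kappa, omega and lambda interferons, held 1 count in RT-R, from IFNL2, and 0 in parental. Relative to library totals before scaling, a count of 0 allows a level of up to 0.300 CPM in RT-R and 0.324 in parental. The alpha genes are near copies of one another, and how reads matching several of them were handled is not given in the sources used here.

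No receptor or signalling gene was called, and their median lay above that of all genes. Of 15 measured genes of this group, 0 were called in either direction, against 6.95% of all genes higher and 4.0% lower. An interval above 1 was found for 9 of the 15 (27.7% of all genes) and one below it for 0 (30.4% of all genes). The median log2 ratio was 0.30, against -0.01 over all genes, or 0.19 after subtraction of chromosomal neighbours. IFNAR1, a chain of the type I receptor, had 502 counts in RT-R and 365 in parental, a ratio of 1.23 (1.08 to 1.42). IFNAR2, its partner chain, had 54 and 43, and its interval spanned 1. The genes of the group past 1.5-fold, named here after their values were seen, were PIAS1 (1.87, 1.36 to 2.59), IFNGR1 (1.78, 1.34 to 2.39), SOCS3 (1.66, 1.44 to 1.90), IFNLR1 (1.64, 1.04 to 2.66) and JAK1 (1.62, 1.45 to 1.82). After subtraction of neighbours the log2 ratios of IFNGR1, IFNLR1 and JAK1 were 0.57, 0.40 and 0.39, below 1.5-fold, and those of PIAS1 and SOCS3 were 0.71 and 0.62. SOCS3 and PIAS1 are inhibitors of the pathway, IFNGR1 and IFNLR1 receptor chains for interferon gamma and lambda. IFNAR1, IFNAR2, IL10RB and IFNGR2 lie side by side on chromosome 21, where the measured genes around them had a median log2 ratio of 0.14 to 0.16. After subtraction of that median, their log2 ratios were 0.14, 0.03, 0.28 and 0.26.

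STAT2 and IRF9, which act together in ISGF3, differed in the size of their ratios. STAT2 had 256 counts in RT-R and 179 in parental, a ratio of 1.28 (1.06 to 1.56). IRF9, the DNA-binding subunit, rose, with 85 counts in RT-R and 36 in parental, a 2.12-fold ratio (1.42 to 3.22). IRF9 relative to STAT2 was 1.65-fold higher in RT-R than in parental (1.05 to 2.63). Such a ratio of ratios does not depend on library scaling. In GENCODE v29 a readthrough gene shares the strand and span of IRF9, and it has no row in these tables.

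The other transcription factors also had more counts in RT-R. IRF1, a factor induced by interferon gamma and by inflammatory signals, had 812 counts in RT-R and 503 in parental, a ratio of 1.45 (1.29 to 1.62). IRF7, which amplifies the production of interferon, had 79 and 57, with an interval that spanned 1 (0.873 to 1.78). The 4 factors of the set thus had log2 ratios from 0.31 to 1.07. STAT2 lies among genes with a median log2 ratio of -0.35, and relative to these its value was 0.71 in place of 0.36.

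The 3 genes of the set grouped here as sensors had ratios below 1, which does not hold for every RNA sensor gene. DHX58, outside the set and named after its value was seen, had 56 counts in RT-R and 42 in parental. Its ratio was 1.20, with an interval that spanned 1 (0.787 to 1.83). DDX58, which encodes RIG-I, the sensor of uncapped RNA ends, had 973 counts in RT-R and 958 in parental, 1.10-fold lower (1.003 to 1.202). The upper bound of its log2 ratio was -0.005, and scaling by total counts raises every log2 ratio by 0.04. Its place among the genes with an interval below 1 therefore depends on the scaling. IFIH1, which encodes the long-RNA sensor MDA5, was scarce in both, with 24 and 27 counts, and its interval spanned 1 (0.440 to 1.43). DDX60, a helicase reported to assist RIG-I, fell, with 94 counts in RT-R and 174 in parental, 2.06-fold (1.60 to 2.68). Its neighbours on chromosome 4 had a median log2 ratio of -0.17, and with this removed its log2 ratio was -0.87, below the 2-fold limit.

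The wider sensing machinery had a median log2 ratio of -0.07 over 21 measured genes, with 0 called in either direction (6.95% of all genes higher and 4.0% lower). Intervals lay above 1 for 4 of the 21 (27.7% of all genes) and below it for 6 (30.4% of all genes). Nearest the limit was AIM2, a sensor of cytosolic DNA, with 38 counts in RT-R and 68 in parental, 1.996-fold lower (1.32 to 3.05). TMEM173, which encodes STING, the adaptor downstream of the DNA sensor cGAS, had 163 and 233 counts, 1.59-fold lower (1.30 to 1.96). MB21D1, which encodes cGAS, had 16 and 20 counts, and its interval spanned 1. IFI16, another DNA sensor, had 2010 and 1344 counts, a ratio of 1.34 (1.25 to 1.44). AIM2, TMEM173, MB21D1 and IFI16 were named after their values were seen.

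The IFIT genes, whose proteins bind the 5' ends of foreign RNA, differed within 1 cluster on chromosome 10. IFIT1 fell, with 119 counts in RT-R and 289 in parental, 2.71-fold (2.18 to 3.38). IFIT3, which stabilises the IFIT1 protein, had 737 and 955 counts, 1.45-fold lower (1.31 to 1.59). IFIT2 had 251 and 225 counts, a ratio of 1.000 (0.832 to 1.203). IFIT5 had 176 and 193 counts, with an interval that spanned 1. IFIT2 had 2.11 counts for each count of IFIT1 in RT-R, against 0.779 in parental. The IFIT2 to IFIT1 ratio was 2.71-fold higher in RT-R than in parental (2.03 to 3.62), a difference beyond counting error. IFIT1, IFIT2 and IFIT3 lie within the span of LIPA on the opposite strand, which had 284 counts in RT-R and 320 in parental, and use of strand in the counting is not given in the sources used here.

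The IFITM genes, whose membrane proteins block the fusion of entering viruses, include IFITM3, the most abundant member in both libraries. IFITM2 had 2667 counts in RT-R and 1313 in parental, a ratio of 1.82 (1.70 to 1.95), with its whole interval below the 2-fold limit. IFITM3 had 4885 and 3424, a ratio of 1.28 (1.22 to 1.34). IFITM1 had 191 and 183, and its interval spanned 1. IFITM2 relative to IFITM1 was 1.95-fold higher in RT-R than in parental (1.56 to 2.42), and relative to IFITM3 1.42-fold (1.31 to 1.54). After subtraction of neighbours the log2 ratio of IFITM2 was 0.74, in place of 0.86. These genes are close copies in 1 cluster on chromosome 11, IFITM1 and IFITM2 overlap on the same strand in GENCODE v29, and the division of reads among the copies is therefore uncertain.

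The OAS genes, which encode sensors of double-stranded RNA that make the activator of RNase L, went in both directions. OAS2 fell, with 21 counts in RT-R and 51 in parental, 2.71-fold (1.60 to 4.74). Its neighbour OAS3 had 125 and 71 counts, a ratio of 1.58 (1.17 to 2.14). OAS1, the third gene of that cluster, had 13 and 4 counts, under the minimum for a call, and an interval of 0.900 to 12.3. OASL, a relative that lacks the enzyme activity, had 165 and 234 counts, 1.58-fold lower (1.29 to 1.94). OAS3 relative to OAS2 was 4.25-fold higher in RT-R than in parental (2.30 to 8.08). The genes around OAS2 and OAS3 had median log2 ratios of 0.02 and -0.02. A noncoding gene on the opposite strand overlaps OAS1, OAS2 and OAS3 in GENCODE v29 and has no row in these tables.

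The MX genes, which encode dynamin-like antiviral GTPases, both had ratios above 1. MX1 rose, with 113 counts in RT-R and 50 in parental, a ratio of 2.03 (1.44 to 2.89). MX2 had 28 and 16 counts, and its interval spanned 1 (0.820 to 3.10). Their neighbours on chromosome 21 had a median log2 ratio of 0.15, and with this removed MX1 was at 0.86, under the 2-fold limit.

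Other effectors had ratios on both sides of 1. RSAD2, which encodes viperin, a maker of a chain-terminating nucleotide, had 1 count in RT-R and 17 in parental, a ratio of 0.0527 (0.00126 to 0.337), but neither library reached the minimum for a call. CMPK2, its neighbour on the opposite strand, had 4 and 0 counts. BST2, or tetherin, which holds budding virus at the cell surface, had 1401 and 1787 counts, 1.42-fold lower (1.33 to 1.53). ISG20, an exonuclease, had 297 and 272 counts, and its interval spanned 1. SAMD9, an inhibitor of poxvirus growth, had 321 and 232 counts, a ratio of 1.24 (1.04 to 1.48), on a stretch of chromosome 7 whose median log2 ratio was -0.16.

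ISG15 and the genes that act with it were divided. ISG15, a ubiquitin-like protein that is attached to other proteins or secreted, fell, with 978 counts in RT-R and 1784 in parental, 2.03-fold (1.88 to 2.202). Its level was 96.2 CPM in RT-R and 196 CPM in parental. With scaling by total counts or by the upper quartile its log2 ratio was -0.98, just short of the limit. HERC6, whose mouse counterpart attaches ISG15 to proteins, had 35 and 60 counts, 1.91-fold lower (1.24 to 2.99). HERC5, the ligase in human cells, had 515 and 532 counts, 1.15-fold lower (1.02 to 1.30). USP18, which removes ISG15 and restrains the receptor, had 12 and 11 counts, under the minimum. PARP9, which acts with DTX3L in ADP-ribosylation, had 256 and 200 counts, and DTX3L, its head-to-head neighbour, 564 and 527, with intervals that spanned 1 for both.

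Of the remaining 6 members, 3 had log2 ratios above 0 and 3 below. IFI6, a regulator of cell survival, had 333 counts in RT-R and 180 in parental, a ratio of 1.66 (1.38 to 2.00). XAF1, an antagonist of the apoptosis inhibitor XIAP, had 110 and 71, a ratio of 1.39 (1.02 to 1.90). IFI44L had 20 and 8 counts and a wide interval (0.946 to 5.88), while its neighbour IFI44 had 114 and 122. IFI27, a mitochondrial protein gene, had 494 and 666 counts, 1.504-fold lower (1.34 to 1.69). IFI35 had 105 and 102, and its interval spanned 1.

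**Figure D3:**
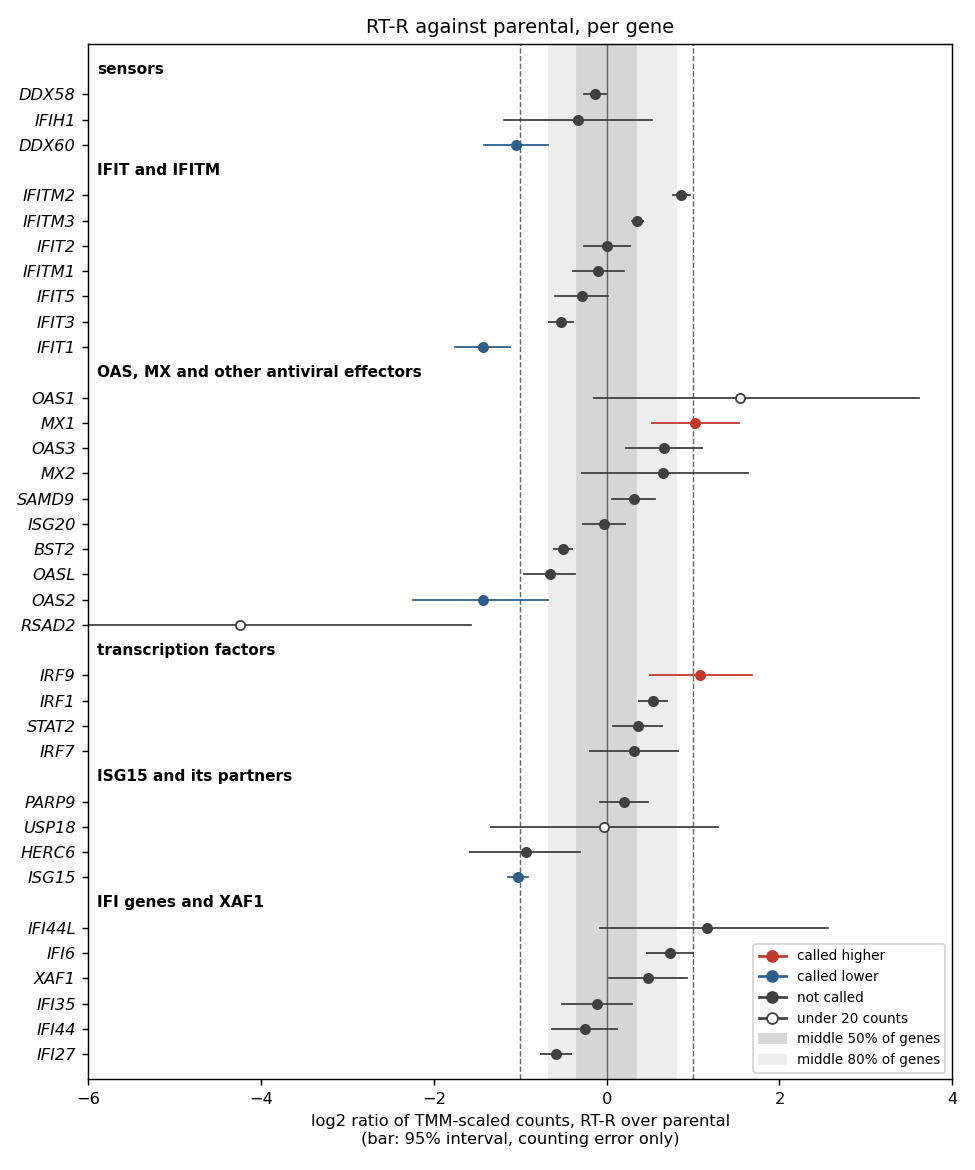
Log2 ratio of scaled counts, RT-R over parental, without a pseudocount, for each of the 34 genes, with 95% intervals for counting error; dashed lines mark 2-fold, and grey bands the middle 50% and 80% of all 12644 measured genes. Of the called genes, MX1 and IRF9 lie past the upper line, and IFIT1, OAS2, DDX60 and ISG15 past the lower line, with intervals that exclude equal expression. RSAD2, under the minimum for a call, also lies past the lower line with such an interval. OAS1 and IFI44L lie past the upper line with intervals that span equal expression.

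Genes of the same family were set against each other in 18 pairs, namely all pairs within the IFIT, IFITM, OAS, MX and IFI44 families and IRF9 with STAT2. In 13 of the 18 pairs the interval excluded equal change. The minimum of 20 counts was not applied to pairs. Among the 13 are pairs with OAS1, under it in both libraries, and with IFI44L, under it in parental. Pairs of the IFIT, IFITM and OAS families reuse the same genes and are not independent. The share was not computed for pairs of other genes, so the count cannot be called particular to these families. Among all single genes, 27.7% had an interval above 1 and 30.4% one below it. The widest shift was OAS1 relative to OAS2, 7.69-fold (2.07 to 36.2), which rests on 13 and 4 counts of OAS1. IFI44L relative to IFI44 was 2.67-fold higher (1.07 to 7.29), and MX1 relative to MX2 had an interval that spanned 1.

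**Figure D4:**
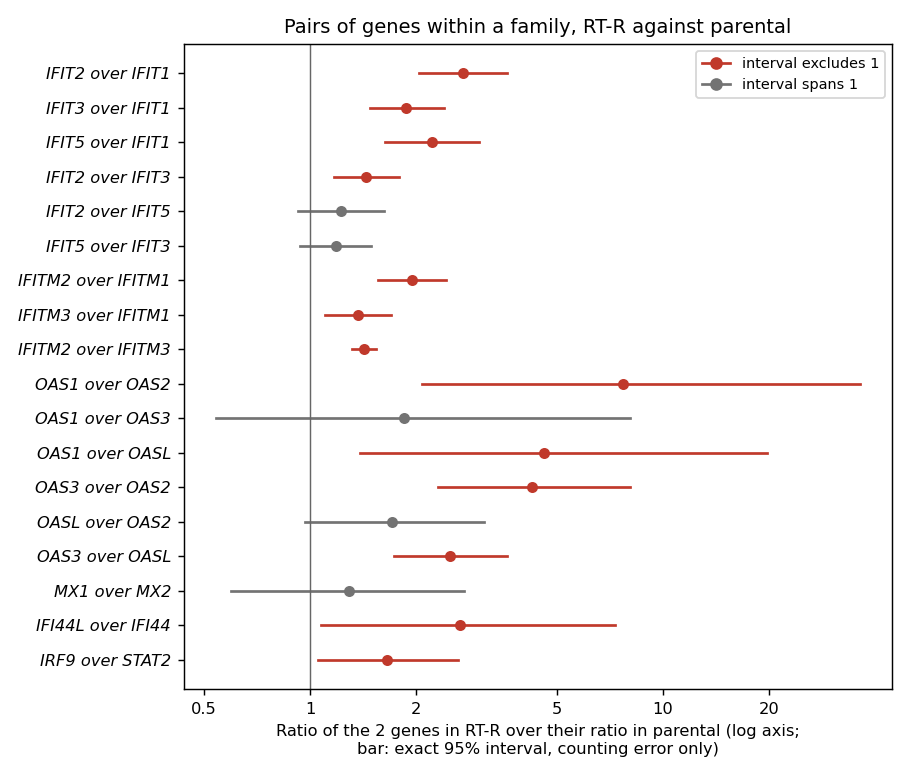
Ratio of 2 genes of a family in RT-R divided by the same ratio in parental (log axis), with the gene of the higher log2 ratio named first, and exact 95% intervals for counting error. All 18 pairs are shown, and the 13 in red exclude 1.

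Among 44 measured interferon-stimulated genes outside the set, 5 rose and 1 fell, with a median log2 ratio of 0.14. TNFSF10, which encodes the death ligand TRAIL, fell, with 70 counts in RT-R and 273 in parental, 4.35-fold (3.33 to 5.74). LGALS9, or galectin-9, rose, with 86 and 20 counts, 3.86-fold (2.35 to 6.62), and has close copies. WARS, the cytosolic tryptophanyl-tRNA synthetase, which interferon gamma induces, rose, with 1658 and 556 counts, 2.67-fold (2.43 to 2.95). TRIM34, a gene of the TRIM cluster on chromosome 11 with close relatives beside it, rose, with 63 and 18 counts, 3.14-fold (1.83 to 5.63). BATF2, a transcription factor, rose, with 94 and 35 counts, 2.41-fold (1.62 to 3.66). LAMP3, a lysosomal membrane protein gene, rose, with 28 and 3 counts, 8.37-fold (2.58 to 43.0). The called share of this list was 11.4% higher and 2.27% lower, against 6.95% and 4.0% of all genes. LAMP3 and TRIM34, 2 of the 5 that rose, reached the minimum of 20 counts through the RT-R library alone, so they enter the count only because they were high there.

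In MHC class I and immunoproteasome genes, which interferon also induces, 1 of 17 rose (5.88%, against 6.95% of all genes) and 0 fell (against 4.0%), with a median log2 ratio of -0.06. The gene that rose was HLA-F (214 and 52 counts, 3.69-fold, 2.71 to 5.10), which shares sequence with other HLA genes and was summed over 7 rows of that symbol.

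**Figure D5:**
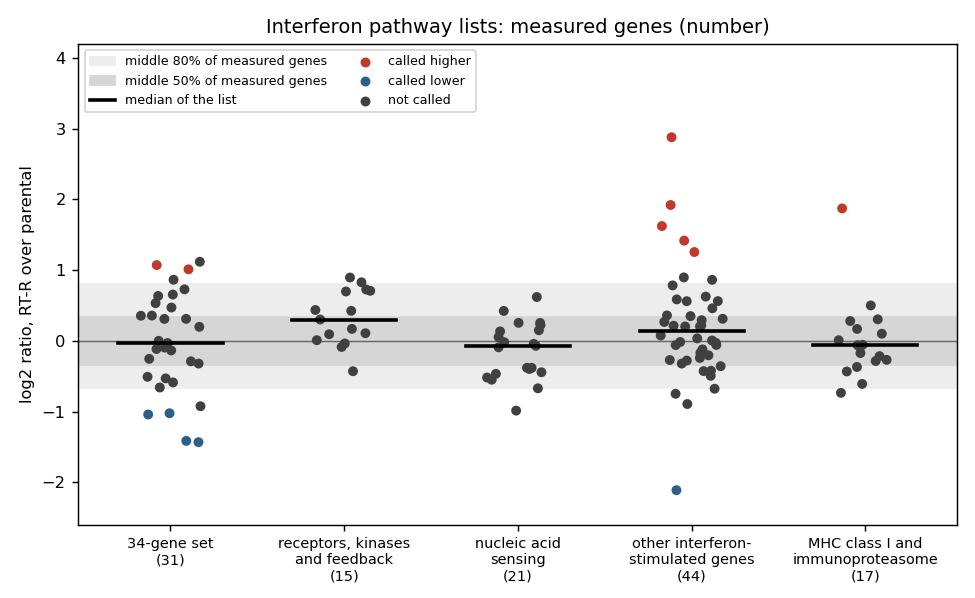
Log2 ratio, RT-R over parental, of the measured genes of 5 lists (points) with each list's median (bar), over bands for the middle 50% and 80% of all measured genes. The receptor list has a median of 0.30 with no gene called, and the other lists have medians between -0.07 and 0.14 with genes called in both directions in the 34-gene set and the wider interferon-stimulated list.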

How the data were processed

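Total RNA from RT-R-MDA-MB-231 and MDA-MB-231 cells was made into 3' tag libraries with a Lexogen QuantSeq kit from 500 ng of RNA, 1 library per line, per the labels' protocols. What the authors deposited is a raw count for each gene symbol, not normalized. The submitters' processing notes name hg19, Bowtie2, bedtools and bcl2fastq (2.20.0.422). Settings, annotation and use of strand are not given in the sources used. No molecular identifiers are named, so counts are of reads.

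Rows of 1 symbol were summed, giving 24462 symbols from 25737 rows. The trimmed mean of M-values (edgeR 4.0.16, R 4.3.3) set the library sizes, with RT-R 1.12 times parental. Both edgeR and R were used for library scaling only. Ratios carry exact conditional (Clopper-Pearson) intervals (scipy 1.17.1, Python 3.11.15), and log2 ratios use a pseudocount of 0.5. A call needed 20 counts in a library, a 2-fold ratio and an interval on one side of 1. The steps were tested on simulated data. Family pairs used the exact conditional odds ratio. Neighbours were 15 measured genes to either side in RefSeq order, and genes of a cluster count among each other's neighbours. Promoter windows came from RefSeq (GRCh38.p14), matched by symbol or synonym, and no hg19 coordinate is used.

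One gene of the pathway lists is not reported here and was left out of them. All 34 genes are named, with the called genes of the other lists. Some others are said to have been named after their values were seen. IFNAR1, IFNAR2, IL10RB, IFNGR2, CMPK2, HERC5 and DTX3L, none of them called, were also named outside this rule. The genes and lists were chosen with earlier results of these data known. Alternatives were 3 other scalings (upper quartile, DESeq2 1.42.0 median of ratios, total counts), other count minimums, folds and a pseudocount of 5, the largest row of a symbol, means, and subtraction of neighbours.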

Additional observations from a re-analysis of the deposited data

How the results depend on the processing

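Scaling by total counts or by the upper quartile raised every log2 ratio by 0.04 and left 3 of the 4 genes that fell, without ISG15 (log2 ratios of -0.98 in both). The median log2 ratio of the set then lay at 0.01, against -0.03, and at -0.12 after subtraction of chromosomal neighbours. That subtraction left 1 gene higher, IRF9, without MX1, and 3 lower, without DDX60. With a minimum of 100 counts, 1 gene was called higher, without IRF9, 3 lower, without OAS2, and 4 were at least 1.5-fold higher, since fewer genes were then tested. With no minimum RSAD2 was also called lower, making 5. With a limit of 1.5-fold and the interval, 5 genes were called higher and 7 lower, and at 4-fold 0 and 0. The RT-R to parental ratio of the summed set was 1.04 with total counts and 0.804 without the 3 IFITM genes, against 1.01. Scaling by the median of ratios and the largest row of each symbol changed the call of 0 of the 34 genes. Calls use ratios without a pseudocount; with a pseudocount of 5 the log2 ratios of MX1 and IRF9 were 0.95 and 0.99, both under the 2-fold limit. No paired analysis was possible because each line has 1 library, and no library could be left out for the same reason. Depth limits IFIH1, MX2, IFI44L, OAS1, USP18, RSAD2 and the interferon genes, whose counts are too low to show a moderate difference, and no interval here covers variation between cultures or PCR copies of a molecule.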

Other observations

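Beyond the genes chosen by name, every measured gene with a RefSeq window was sorted by whether the window held the response element. Of 385 genes with the core of the element (GAAA, NN and GAAA in a row, N being any base), 24 rose (6.23%) and 18 fell (4.68%), with a median log2 ratio of -0.04. Of 9589 genes without it, 609 rose (6.35%) and 367 fell (3.83%), with a median of -0.02. The longer form (GGAAA, NN and GAAAC) was rare, in 52 measured genes, of which 2 rose (3.85%) and 5 fell (9.62%), against 6.36% and 3.83% of the 9922 genes without it. With the members of the 34-gene set left out, 40 such genes remained, of which 1 rose (2.5%) and 2 fell (5%), with a median log2 ratio of 0.05. These are descriptions of 1 library per line, with no test.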
